A study of Homo sapiens with 6 samples.

Results

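The genes described here are 42 interferon-stimulated genes, a named list of transcription factors, RNA sensors, antiviral effectors and antigen-processing subunits whose transcription interferons raise. They were taken by gene symbol from the 34738 genes of the deposited expression table, and all 42 were found in it. The list holds 39 type I interferon sensors and effectors and 3 genes tied to interferon gamma signalling and antigen processing, which are IRF1 and the immunoproteasome subunits PSMB8 and PSMB9.

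RNA was measured in cells of KHM-5M, a thyroid cancer line named by the labels, while the study's own description of the expression heatmap names a different thyroid cancer line, TPC-1. In the siGDF15 group the cells were transfected with a small interfering RNA against GDF15, a secreted stress cytokine of the TGF-beta family, carried by a lipid reagent in serum-free medium. The control group (NC) carries the genotype "control" in the labels. It is called a blank control in the deposited design and negative control cells in the methods. The study also lists the sequence of a negative control small interfering RNA, without stating that the sequenced NC cells received it. Transfection itself and the loss of GDF15 thus cannot be told apart unless NC was transfected too. The study lists a single sequence against GDF15, so its other effects cannot be told apart from the loss of GDF15 in either case. Each group had 3 libraries, called replicates 1 to 3, of poly(A) RNA read as pairs of 150 bases, and the sources do not say from which cultures each came beyond calling them biological replicates, so p-values measure the spread between these libraries.

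Type I interferons bind the receptor pair IFNAR1 and IFNAR2, whose kinases JAK1 and TYK2 phosphorylate STAT2, which joins IRF9 in the complex ISGF3. ISGF3 binds the interferon-stimulated response element (ISRE) in the promoters of antiviral genes. Interferon gamma acts through a different element (GAS), and through IRF1, on genes of antigen presentation, and many interferon-stimulated genes are also transcribed at a basal level in cancer cells that receive no interferon.

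GDF15 itself measured 22.4, 19.3 and 23.1 FPKM (read pairs scaled to transcript length and to the mapped pairs of the library, a level per length) in NC and 10.8, 10.5 and 10.7 FPKM in siGDF15. The targeted gene was thus lower in every siGDF15 library, by 0.92 on the log2 scale (SE 0.079, adjusted p = 2.4e-05 by edgeR's quasi-likelihood test). Total counts were 67569576 to 68025163 in NC and 51738814 to 67793417 in siGDF15, with the lowest total in siGDF15 replicate 2. Of 6 thyroid lineage markers, PAX8 and FOXE1 had a mean of at least 1 FPKM, and TG, SLC5A5 and NKX2-1 were near 0, with a summed level of 56.9 to 67.9 FPKM in NC and 80.3 to 83.6 FPKM in siGDF15. Of 8 immune cell markers only CD68 reached a mean of 1 FPKM, with PTPRC, CD3E and MS4A1 at or near 0 and a summed level of 17.9 to 19.7 FPKM in NC and 16.6 to 18.6 FPKM in siGDF15. The 5 mesenchymal markers summed to 412 to 460 FPKM in NC and 379 to 395 FPKM in siGDF15.

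NC replicate 3 stood apart from the other NC libraries in a group of genes, a pattern found after the values were seen. MUC5AC, a secreted mucin, had counts of 0, 0 and 293 in NC replicates 1 to 3 and of 238, 179 and 274 in siGDF15. CEACAM6, an epithelial adhesion protein, measured 0.805, 0.962 and 4.92 FPKM in NC and 3.96, 4.13 and 3.85 FPKM in siGDF15, so that NC replicate 3 lay beside the siGDF15 libraries. CPLX2, a regulator of vesicle release, had 0.0459, 0.0464 and 1.02 FPKM in NC and 0.740 to 0.855 FPKM in siGDF15. The summed level of 5 epithelial markers was 123, 101 and 149 FPKM in NC and 126 to 136 FPKM in siGDF15. Here NC replicate 3 lay above all siGDF15 libraries, NC replicate 1 close under them and NC replicate 2 lowest. Among the 41 interferon-stimulated genes with over 36 counts in some library, 6 were at least 1.5 times as high in NC replicate 3 as in the higher of the other NC libraries (CMPK2, IFI27, MX1, MX2, OAS1 and RSAD2), whereas none was so in NC replicate 1 or 2. Over all 17195 genes with that many counts the shares were 1.87, 3.48 and 2.67% for NC replicates 1, 2 and 3. What NC replicate 3 and the siGDF15 libraries share was not tested. The counts of called genes and the fold changes of IFI6 and IFI27 are given below with and without that library. For OAS1, MX1, CMPK2, RSAD2 and MX2, all at low levels, the siGDF15 mean FPKM was set against both parts of NC. In that order it was 2.54, 3.05, 3.85, 7.08 and 4.55 times the mean of NC replicates 1 and 2. Against NC replicate 3 it was 1.12, 0.907, 0.594, 2.69 and 1.4 times as high.

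The ISRE core, searched as GAAANNGAAA on both strands in the window from 250 bases before to 50 bases after each gene's start (RefSeq, GRCh38.p14), was present for 24 of the 35 interferon-stimulated genes with a window (68.6%). Of all 27305 gene symbols with a window 4.38% held it, and of all 35116 windows 3.57%. No window was given for IFIT2, IFITM2, IRF7, OAS2, MX2, USP18 or OASL. The following stretches of 40 bases, each 5′ to 3′ on the strand of its gene, show the match in a selection of these genes. The selection holds genes that were higher, lower or not called after GDF15 knockdown. As the same search found every match, the cores are alike by construction, which says nothing of direction. Capitals mark a core match, written as TTTCNNTTTC where it reads on the opposite strand, and where a window holds more than 1 match only that nearest the gene's start is capitalised.
The genes that rose come first:
IFIT3, chr10:89327860-89327899, plus strand: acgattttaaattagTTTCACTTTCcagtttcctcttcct
IFI6, chr1:27672261-27672300, minus strand: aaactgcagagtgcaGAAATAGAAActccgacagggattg
LGALS3BP, chr17:78979957-78979996, minus strand: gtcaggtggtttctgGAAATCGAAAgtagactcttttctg
The genes that fell follow:
IFIT5, chr10:89414549-89414588, plus strand: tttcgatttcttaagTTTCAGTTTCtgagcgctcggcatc
OAS3, chr12:112938447-112938486, plus strand: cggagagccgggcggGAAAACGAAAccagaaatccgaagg
IFI44, chr1:78649756-78649795, plus strand: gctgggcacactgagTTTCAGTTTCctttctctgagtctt
PARP14, chr3:122680795-122680834, plus strand: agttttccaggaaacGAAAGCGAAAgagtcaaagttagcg
The last are genes that did not pass the test, with PARP9 and DTX3L reading the same site on opposite strands:
IFIT1, chr10:89392505-89392544, plus strand: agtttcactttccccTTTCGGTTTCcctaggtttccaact
ISG15, chr1:1013375-1013414, plus strand: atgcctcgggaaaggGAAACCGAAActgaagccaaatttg
IFI27, chr14:94110626-94110665, plus strand: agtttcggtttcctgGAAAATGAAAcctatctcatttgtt
PARP9, chr3:122564317-122564356, minus strand: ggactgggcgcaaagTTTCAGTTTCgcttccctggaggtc
DTX3L, chr3:122564317-122564356, plus strand: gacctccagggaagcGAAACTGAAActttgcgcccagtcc

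The GAS element, searched as TTCNNNGAA, which reads the same on both strands, was present for 10 of the 35 genes (28.6%) and for 9.38% of all symbols. It stands in capitals in the stretches of the transcription factor genes IRF1 and IRF9, which held no ISRE core in their windows:
IRF1, chr5:132490874-132490912, minus strand: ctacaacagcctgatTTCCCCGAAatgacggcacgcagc
IRF9, chr14:24161187-24161225, plus strand: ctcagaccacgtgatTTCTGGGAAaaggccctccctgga

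Of the 42 interferon-stimulated genes, 32 had a mean of at least 1 FPKM and were tested. After GDF15 knockdown 13 were higher and 7 lower at an adjusted p under 0.05 (edgeR, Benjamini-Hochberg over all 11867 genes tested), and 12 were not called. Over all tested genes 30.0% were higher and 31.4% lower by the same rule, 61.4% in all, so that 13 and 7 of 32 stand beside a background in which most genes were called. Without NC replicate 3 the counts were again 13 higher and 7 lower (30.4 and 31.4% of all tested genes), and with NC replicate 3 alone as NC they were 13 and 5 (29.4 and 29.2%). The 13 higher without NC replicate 3 were not the same 13 genes. PSMB8 lost its call there (edgeR, adjusted p = 0.089) and IFI27 was called in its place. As IFI27 passed the level filter only through its siGDF15 libraries, the equal count does not show that the calls were stable. With the added threshold of a log2 fold change of at least 1, STAT2 and IFIT2 were higher and no gene was lower, against 3.03% higher and 4.78% lower over all tested genes, or 7.81% in either direction. STAT2 lay close to that threshold, at 0.95 without NC replicate 3, where IFI27 passed it instead. The median log2 fold change of the 32 genes was 0.22, beside 0.0026 for all tested genes, with a range from -0.79 (IFI44) to 1.39 (IFI27). IFI27 passed the level filter only through its siGDF15 libraries, and the 10 genes under the filter were OAS1, OAS2, MX1, MX2, RSAD2, CMPK2, ISG20, IFI44L, XAF1 and PSMB9. In FPKM the groups did not overlap for 13 of the 32 genes on the higher side and 8 on the lower side, beside 25.6 and 42.8% of all tested genes (68.4% together). FPKM carry no TMM correction (trimmed mean of M-values, the scaling used in the test, with factors of 1.03 to 1.04 in NC and 0.958 to 0.972 in siGDF15), which moved the median of all genes by about 0.10 on the log2 scale, so the fold changes here are those of the test.

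**Figure D1:**
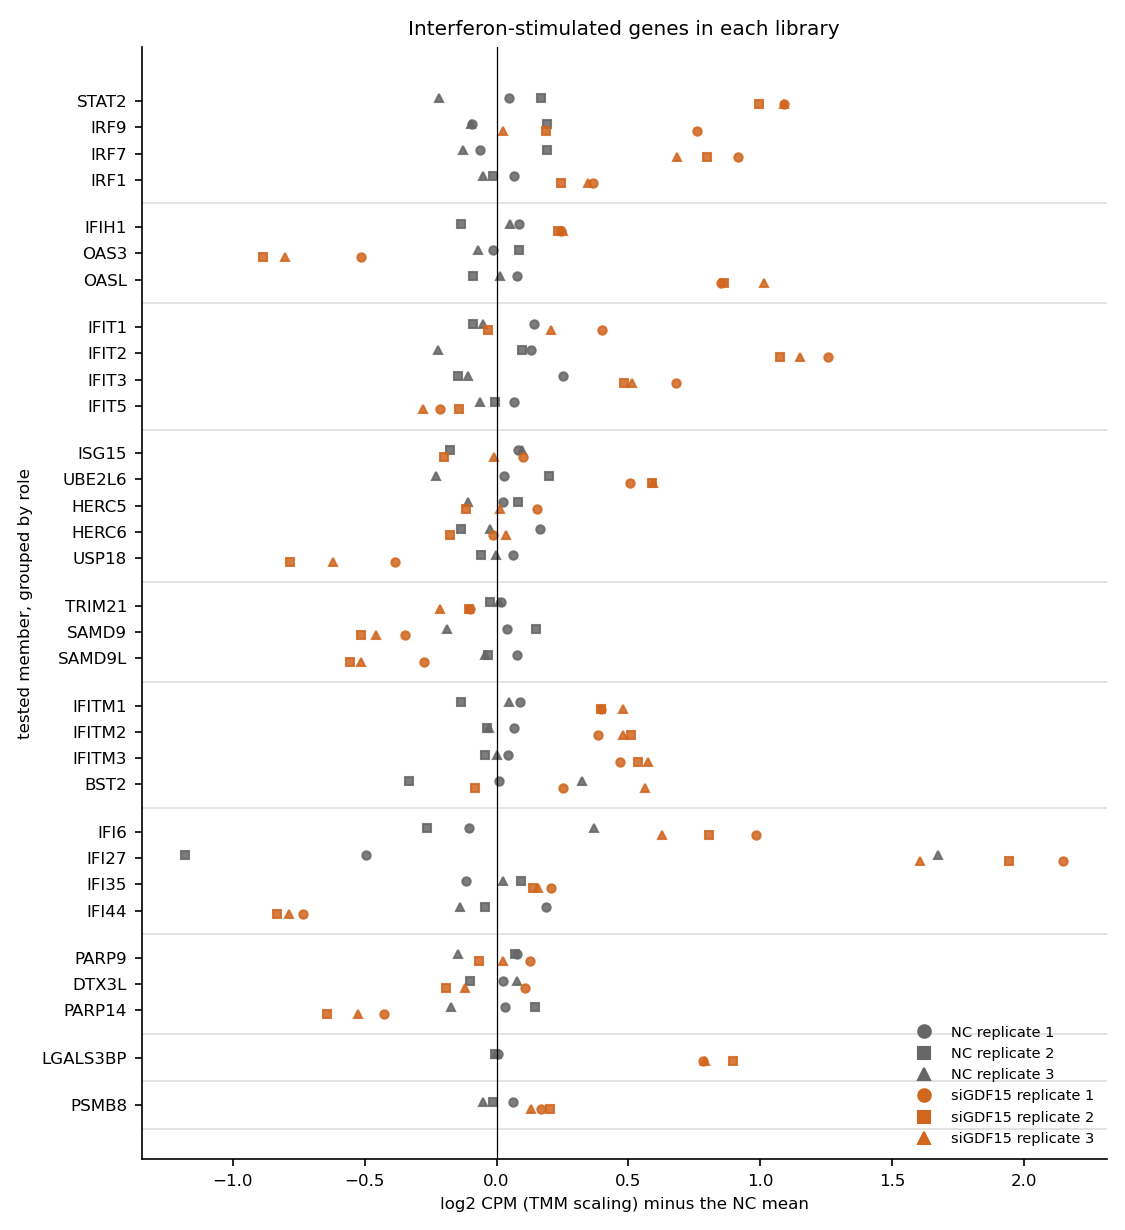
Log2 CPM (counts scaled to library size, with TMM scaling), minus the NC mean, of the 32 tested interferon-stimulated genes (rows, grouped by role) in each of the 6 libraries (grey: NC, orange: siGDF15, 1 symbol per replicate). STAT2, IFIT2, OASL, IRF7 and LGALS3BP lie to the right of all NC points in every siGDF15 library, OAS3, USP18, PARP14 and IFI44 to the left, and NC replicate 3 of IFI27 lies among the siGDF15 points.

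Taken per library as log2 CPM minus the NC mean, the median of these 32 genes was 0.055, -0.028 and -0.047 for NC replicates 1 to 3 and 0.25, 0.16 and 0.18 for siGDF15 replicates 1 to 3. The 3 siGDF15 medians lay above the 3 NC medians, while single genes moved in both directions. As bulk RNA was measured, fewer cells that express a gene and less of its RNA per cell cannot be told apart.

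**Figure D2:**
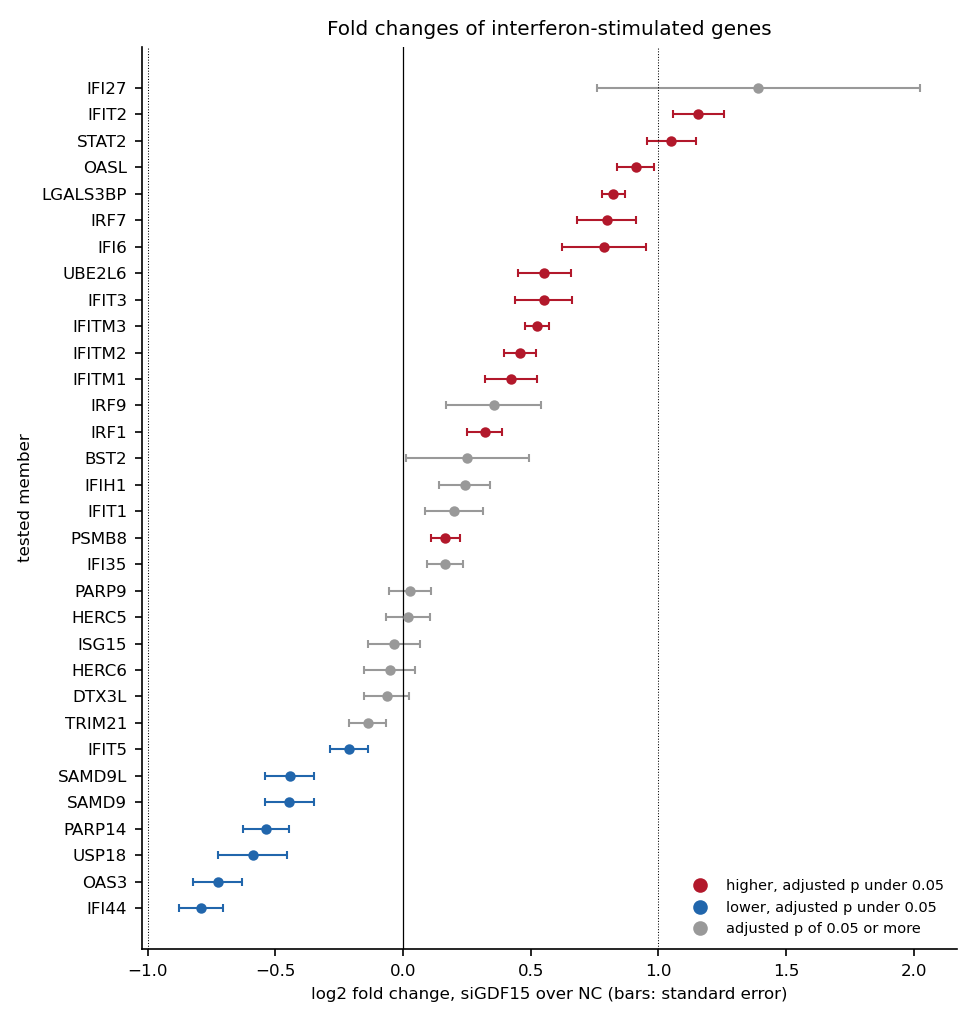
Log2 fold change (siGDF15 over NC) with its standard error for the 32 tested interferon-stimulated genes, in order of size, from the edgeR fit on 3 libraries per group. Red marks the 13 genes higher and blue the 7 genes lower at an adjusted p under 0.05, and the dotted lines stand at log2 fold changes of -1 and 1.

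In the ISGF3 complex and among the interferon regulatory factors, 3 of 4 genes rose, beside 30.0% of all tested genes. The other gene was not called. With so few genes per role group, this count and those of the groups below are descriptions. STAT2, which supplies the transactivation domain of ISGF3 (chr12:56341597-56360203, minus strand, GRCh38), measured 3.61, 3.96 and 2.98 FPKM in NC and 7.00, 6.40 and 6.97 FPKM in siGDF15. All siGDF15 libraries lay above all NC libraries, and the log2 fold change was 1.05 (SE 0.095, adjusted p = 3.1e-05). IRF9, the DNA-binding subunit of ISGF3, measured 1.70, 2.08 and 1.66 FPKM in NC and 2.88, 1.90 and 1.71 FPKM in siGDF15. For IRF9 the groups overlapped, with siGDF15 replicate 1 alone above all NC libraries, and the log2 fold change of 0.36 (SE 0.19) did not pass the test (adjusted p = 0.13). IRF9 also shares 5219 bases of its span with a readthrough gene on the same strand (ENSG00000259529, mean 4.44 FPKM), so its level is uncertain.

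IRF7, the factor that amplifies transcription of type I interferon genes (chr11:612553-615983, minus strand), measured 2.85, 3.41 and 2.70 FPKM in NC and 5.28, 4.76 and 4.49 FPKM in siGDF15. Its groups did not overlap, and it rose by 0.80 on the log2 scale (SE 0.12, adjusted p = 4.5e-04). IRF1, an early factor downstream of interferon gamma, measured 1.51, 1.44 and 1.38 FPKM in NC and 1.74, 1.57 and 1.71 FPKM in siGDF15. IRF1 thus rose less, with a log2 fold change of 0.32 (SE 0.068, adjusted p = 0.0037), and the call was lost with limma on log2(FPKM + 0.1) and log2(FPKM + 1) (adjusted p = 0.099 and 0.096). The reads of IRF1 and of the antisense gene IRF1-AS1, which lies over 48263 bases of its span at a mean of 0.226 FPKM, may be split, since the strand setting of the counting is not given in the sources used here.

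The RNA sensor and oligoadenylate synthetase genes went in opposite directions. OASL, the family member without synthetase activity, which binds the sensor RIG-I (chr12:121017763-121039246, minus strand), measured 3.34, 2.99 and 3.17 FPKM in NC and 5.36, 5.28 and 5.98 FPKM in siGDF15. It rose by 0.91 on the log2 scale (SE 0.072, adjusted p = 1.5e-05), with all siGDF15 libraries above all NC libraries. OAS3, which makes 2′-5′ oligoadenylates from ATP (chr12:112938051-112973251, plus strand), measured 4.41, 4.76 and 4.21 FPKM in NC and 2.92, 2.20 and 2.38 FPKM in siGDF15. OAS3 fell by 0.73 on the log2 scale (SE 0.096, adjusted p = 2.6e-04), again with no overlap. IFIH1, the sensor MDA5 of long double-stranded RNA, measured 1.43 to 1.66 FPKM in NC and 1.68 to 1.74 FPKM in siGDF15, and its log2 fold change of 0.24 did not pass the test (adjusted p = 0.065).

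The synthetase genes OAS1 and OAS2, neighbours of OAS3 on chromosome 12, stayed under the level filter. OAS1 measured 0.185, 0.236 and 0.476 FPKM in NC and 0.586, 0.509 and 0.507 FPKM in siGDF15, so that NC replicate 3 lay close under the siGDF15 libraries. Without a level filter its log2 fold change was 0.89 with an adjusted p of 0.080. OAS2 measured 0.532, 0.499 and 0.641 FPKM in NC and 0.780, 0.689 and 0.843 FPKM in siGDF15. Without a level filter OAS2 was higher by 0.52 on the log2 scale (adjusted p = 0.027, in a fit where 9.50% of 34738 genes were higher). The neighbouring genes of this cluster thus had unlike levels, with OAS3 the highest of the 3 and the only 1 of them lower in siGDF15.

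The IFIT genes, which encode proteins that bind foreign RNA ends and block translation, lie next to each other on chromosome 10. Of the 4 genes 2 rose and 1 fell, beside 30.0 and 31.4% of all tested genes. IFIT2 (chr10:89283694-89309271, plus strand) measured 5.55, 5.45 and 4.32 FPKM in NC and 11.4, 9.84 and 10.5 FPKM in siGDF15. No siGDF15 library of IFIT2 came near the NC range, and the log2 fold change of 1.16 (SE 0.10, adjusted p = 2.5e-05) was the largest of the 13 genes that rose. IFIT2 shares 8432 bases of its span with a long noncoding gene on the same strand (ENSG00000232110, mean 2.35 FPKM), so its level is uncertain. IFIT3, which stabilises IFIT1 on RNA, measured 7.60, 5.80 and 5.88 FPKM in NC and 9.58, 8.18 and 8.51 FPKM in siGDF15. IFIT3 rose by 0.55 on the log2 scale (SE 0.11, adjusted p = 0.0029), and its highest NC library, replicate 1, lay just under the lowest siGDF15 library.

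IFIT1 and IFIT5 differed from these neighbours. IFIT1, which binds capped RNA that lacks 2′-O methylation, measured 5.48, 4.71 and 4.77 FPKM in NC and 6.16, 4.46 and 5.36 FPKM in siGDF15. For IFIT1 siGDF15 replicate 1 lay above and replicate 2 below all NC libraries, and the log2 fold change of 0.20 (SE 0.11) did not pass the test (adjusted p = 0.16). IFIT5, which binds uncapped RNA ends, measured 4.23, 4.06 and 3.85 FPKM in NC and 3.26, 3.36 and 3.11 FPKM in siGDF15. Its log2 fold change was -0.21 (SE 0.075, adjusted p = 0.035), and the call was lost without NC replicate 1, NC replicate 2, siGDF15 replicate 1 or siGDF15 replicate 3, with an adjusted p of up to 0.13, and with NC replicate 3 alone as NC (adjusted p = 0.24). LIPA, a lysosomal lipase gene on the opposite strand at a mean of 16.7 FPKM, spans IFIT1, IFIT2 and IFIT3, so their reads could be split with it if strand was not used.

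The ISG15 conjugation system attaches the ubiquitin-like protein ISG15 to other proteins. Of its 5 genes 1 rose and 1 fell, beside 30.0 and 31.4% of all tested genes. ISG15 itself, the highest of the 5 per length, measured 29.8, 25.0 and 29.9 FPKM in NC and 28.2, 22.5 and 26.1 FPKM in siGDF15. The groups overlapped, and the log2 fold change was -0.037 (SE 0.10, adjusted p = 0.77). UBE2L6, the conjugating enzyme of the system (chr11:57551656-57568284, minus strand), measured 10.2, 11.6 and 8.48 FPKM in NC and 13.3, 13.8 and 14.1 FPKM in siGDF15. It rose by 0.55 on the log2 scale (SE 0.10, adjusted p = 0.0018), with no overlap.

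USP18, the protease that removes ISG15 and also damps signalling at the type I receptor (chr22:18150118-18177397, plus strand), measured 2.08, 1.92 and 1.97 FPKM in NC and 1.43, 1.06 and 1.21 FPKM in siGDF15. It fell by 0.59 on the log2 scale (SE 0.13, adjusted p = 0.0052), in all siGDF15 libraries against all NC libraries. The ligase HERC5 and its relative HERC6 had log2 fold changes of 0.019 and -0.053, with adjusted p of 0.86 and 0.67. The directions of HERC5, HERC6 and ISG15, all close to 0, flipped with the scaling of the libraries.

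Among the MX GTPases and other antiviral effectors, 3 of 8 genes were tested and 2 of these fell, beside 31.4% of all tested genes. SAMD9, which blocks poxvirus replication and restricts translation (chr7:93099513-93118023, minus strand), measured 3.52, 3.83 and 2.99 FPKM in NC and 2.52, 2.20 and 2.33 FPKM in siGDF15. SAMD9L, its neighbour and paralog, measured 2.11, 1.98 and 1.93 FPKM in NC and 1.55, 1.25 and 1.31 FPKM in siGDF15. Both genes fell to a like extent, SAMD9 by 0.45 (SE 0.096, adjusted p = 0.0039) and SAMD9L by 0.44 (SE 0.096, adjusted p = 0.0040) on the log2 scale. With NC replicate 3 alone standing for NC, the adjusted p of SAMD9 was 0.065. TRIM21, a cytosolic antibody receptor and ubiquitin ligase and the highest of the 8 per length, measured 8.37, 8.20 and 8.28 FPKM in NC and 7.24, 7.07 and 6.68 FPKM in siGDF15, with a log2 fold change of -0.14 that did not pass the test (adjusted p = 0.13). Without TMM scaling TRIM21 was lower by 0.24 and passed it.

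The other 5 genes of that group stayed under the level filter, and RSAD2, MX2 and CMPK2 rested on few counts. MX1, the GTPase that traps incoming viral nucleocapsids, measured 0.135, 0.0882 and 0.375 FPKM in NC and 0.360, 0.350 and 0.311 FPKM in siGDF15, so its highest library was NC replicate 3. Its log2 fold change without a level filter was 0.81 with an adjusted p of 0.28. RSAD2, which encodes the antiviral enzyme viperin, had counts of 13, 4 and 22 in NC and of 68, 32 and 71 in siGDF15. As 1 read pair was taken as 4 counts, RSAD2 rested on few read pairs in any library, and its log2 fold change without a level filter was 2.25 (adjusted p = 0.017). CMPK2, its mitochondrial kinase neighbour, measured 0.0363, 0.0507 and 0.282 FPKM in NC and 0.145, 0.166 and 0.193 FPKM in siGDF15, again with the highest value in NC replicate 3. MX2, which restricts lentiviruses at the nuclear pore, had 4 to 22 counts in NC and 17 to 46 in siGDF15, and the exonuclease gene ISG20 measured 0.490 to 0.583 FPKM in NC and 0.536 to 0.608 FPKM in siGDF15.

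**Figure D3:**
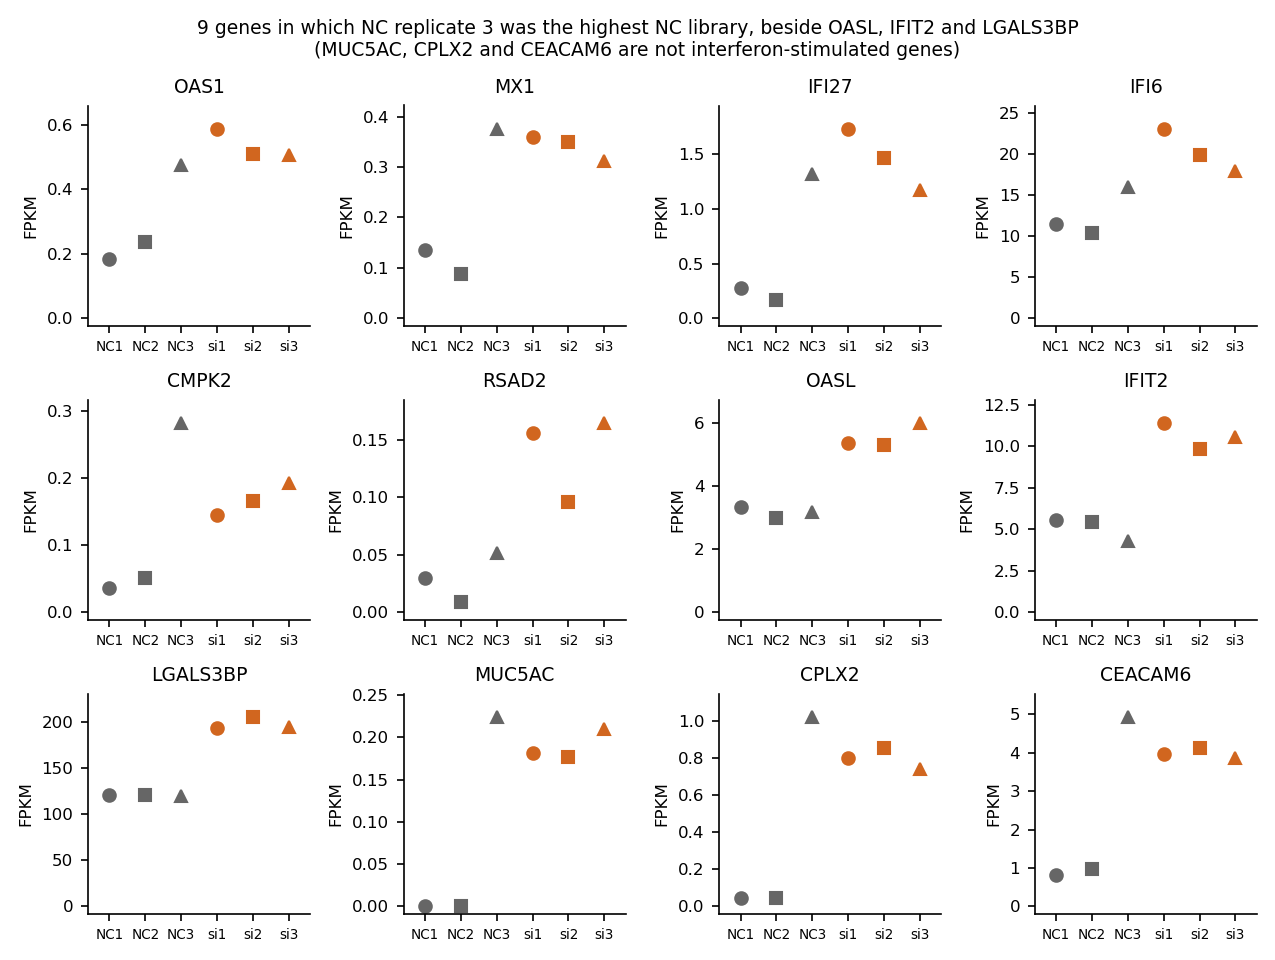
FPKM in each library (NC1 to NC3 in grey, si1 to si3 in orange, each panel with its own axis) of 6 interferon-stimulated genes in which NC replicate 3 was the highest NC library, of OASL, IFIT2 and LGALS3BP, and of the other genes MUC5AC, CPLX2 and CEACAM6. In OAS1, MX1, IFI27 and CMPK2 NC replicate 3 lies with or above the siGDF15 libraries, as it does in the 3 other genes, whereas in OASL, IFIT2 and LGALS3BP it lies with NC replicates 1 and 2.

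The interferon-induced transmembrane genes rose together, with all 3 called, beside 30.0% of all tested genes called higher. IFITM3, which blocks fusion of viruses in endosomes (chr11:319676-329475, minus strand), measured 37.0, 35.1 and 35.7 FPKM in NC and 46.6, 47.8 and 50.0 FPKM in siGDF15. IFITM2, its close paralog, measured 23.3, 21.9 and 21.7 FPKM in NC and 27.3, 29.1 and 29.01 FPKM in siGDF15. IFITM1, which acts at the cell surface, measured 4.93, 4.25 and 4.76 FPKM in NC and 5.73, 5.60 and 6.05 FPKM in siGDF15. None of the 3 had overlapping groups, and the log2 fold changes were 0.53 (SE 0.047, adjusted p = 2.9e-05) for IFITM3, 0.46 (SE 0.062, adjusted p = 2.9e-04) for IFITM2 and 0.42 (SE 0.10, adjusted p = 0.0067) for IFITM1. Their sequences are near-identical over long stretches, so reads may have been shared among them and their levels are not independent. BST2, which tethers budding virions and was grouped with them, measured 1.30, 1.03 and 1.62 FPKM in NC and 1.46, 1.11 and 1.80 FPKM in siGDF15, and its log2 fold change of 0.25 (SE 0.24) did not pass the test (adjusted p = 0.39).

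Of the genes named IFI for interferon inducible, 1 of the 4 tested rose and 1 fell, beside 30.0 and 31.4% of all tested genes. IFI6, a small endoplasmic reticulum protein that limits apoptosis and flavivirus replication (chr1:27666064-27672198, minus strand), measured 11.6, 10.4 and 16.0 FPKM in NC and 23.1, 19.97 and 18.0 FPKM in siGDF15. IFI6 rose by 0.79 on the log2 scale (SE 0.17, adjusted p = 0.0034), with NC replicate 3 the highest NC library. Without NC replicate 3 the log2 fold change was 0.99 (adjusted p = 8.2e-05), and with NC replicate 3 alone as NC it was 0.44 (adjusted p = 0.027). IFI27, a mitochondrial and nuclear membrane protein of the same small family, measured 0.281, 0.169 and 1.32 FPKM in NC and 1.73, 1.46 and 1.17 FPKM in siGDF15. NC replicate 3 of IFI27 lay within the siGDF15 range, and the log2 fold change of 1.39 (SE 0.63) did not pass the test (adjusted p = 0.087). The log2 fold change of IFI27 was 2.75 without NC replicate 3 and 0.24 with NC replicate 3 alone as NC. These values are a description, as IFI27 passed the level filter only through its siGDF15 libraries. NC replicate 3 was also set apart only after its values were seen.

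IFI44, a cytoplasmic protein linked to lower cell proliferation (chr1:78649796-78664078, plus strand), fell the most of the 32 tested genes. It measured 31.4, 26.9 and 24.9 FPKM in NC and 15.5, 14.2 and 14.9 FPKM in siGDF15, and the lowest NC library was well above the highest siGDF15 library. IFI44 fell by 0.79 on the log2 scale (SE 0.088, adjusted p = 9.6e-05). IFI44L, the paralog beside it on chromosome 1, measured 0.0195 to 0.0537 FPKM in NC and 0.0759 to 0.124 FPKM in siGDF15, far under IFI44 per length. Without a level filter the log2 fold change of IFI44L was 1.29 with an adjusted p of 0.0504. IFI35, which binds NMI and regulates innate signalling, measured 10.7, 12.4 and 11.7 FPKM in NC and 12.5, 11.7 and 12.1 FPKM in siGDF15 and did not pass the test (log2 fold change 0.16, adjusted p = 0.072). XAF1, an antagonist of the apoptosis inhibitor XIAP, had 2, 0 and 8 counts in NC and 13, 9 and 12 in siGDF15, at or about the floor of 12 counts that 3 read pairs make, so no fold is given.

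PARP9 and DTX3L form a complex that modifies histones and ubiquitin, and PARP14 is their neighbour on chromosome 3. PARP14, a mono-ADP-ribosyltransferase (chr3:122680839-122730840, plus strand), measured 7.17, 7.82 and 6.19 FPKM in NC and 4.89, 4.12 and 4.57 FPKM in siGDF15. It fell by 0.54 on the log2 scale (SE 0.090, adjusted p = 9.9e-04), with no overlap. DTX3L, the ubiquitin ligase of the complex, measured 8.88, 8.18 and 9.15 FPKM in NC and 8.81, 7.00 and 7.50 FPKM in siGDF15. PARP9 measured 2.50 to 2.93 FPKM in NC and 2.43 to 2.84 FPKM in siGDF15. Neither subunit of the complex was called, with log2 fold changes of -0.065 for DTX3L (adjusted p = 0.55) and 0.027 for PARP9 (adjusted p = 0.79). Their shared promoter site is the one printed above from both strands, and the spans of the genes overlap by 240 bases.

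LGALS3BP, a secreted glycoprotein that binds galectins (chr17:78971238-78979927, minus strand), was the highest of the 42 genes per length, at a mean of 158.6 FPKM over all libraries. It measured 120.5, 120.4 and 119.0 FPKM in NC and 193.2, 204.9 and 193.7 FPKM in siGDF15. The NC libraries differed by little more than 1 FPKM and the siGDF15 libraries all lay above 193 FPKM, for a log2 fold change of 0.82 (SE 0.046, adjusted p = 2.4e-06). NC replicate 3 of LGALS3BP lay with the other NC libraries. The whole window of 300 bases of this most expressed gene is shown with that of IFI44, the gene that fell most, each with its only ISRE core in capitals:
LGALS3BP, chr17:78979874-78980173, minus strand: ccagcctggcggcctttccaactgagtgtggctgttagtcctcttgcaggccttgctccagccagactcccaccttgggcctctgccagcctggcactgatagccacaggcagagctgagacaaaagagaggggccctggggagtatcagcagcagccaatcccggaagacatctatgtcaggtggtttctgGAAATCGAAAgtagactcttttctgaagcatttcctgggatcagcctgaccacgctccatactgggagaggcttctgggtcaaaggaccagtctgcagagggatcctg
IFI44, chr1:78649539-78649838, plus strand: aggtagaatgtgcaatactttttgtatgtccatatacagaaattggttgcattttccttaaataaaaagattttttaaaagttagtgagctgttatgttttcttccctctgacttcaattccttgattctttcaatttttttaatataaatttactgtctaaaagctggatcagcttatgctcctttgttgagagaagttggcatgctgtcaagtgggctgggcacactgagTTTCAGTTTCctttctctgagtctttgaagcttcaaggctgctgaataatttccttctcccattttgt
Over these windows G and C made up 56.7% of the bases for LGALS3BP and 35.0% for IFI44.

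The immunoproteasome subunits replace catalytic subunits of the constitutive proteasome and shape the peptides loaded on MHC class I. PSMB8 (chr6:32840717-32844047, minus strand) measured 11.2, 10.7 and 10.3 FPKM in NC and 11.3, 11.4 and 10.99 FPKM in siGDF15. The FPKM groups overlapped, and the log2 fold change of 0.17 (SE 0.058, adjusted p = 0.036) was called by a small margin, since the adjusted p was 0.053 to 0.096 without any library other than NC replicate 1, and 0.37 without TMM scaling. PSMB9, its neighbour, measured 0.641, 0.654 and 0.671 FPKM in NC and 0.350, 0.576 and 0.572 FPKM in siGDF15, under the level filter. Without the filter its log2 fold change was -0.33 with an adjusted p of 0.39. PSMB9 spans the whole of TAP1 on the opposite strand (8509 bases, mean 5.38 FPKM), so its low count is uncertain.

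Set side by side, the tested genes of the group of IRF1, PSMB8 and PSMB9 were IRF1 and PSMB8. They rose by 0.32 and 0.17, PSMB8 by a small margin, with a median log2 fold change of 0.24. PSMB9, under the level filter, went the other way, with lower FPKM in every siGDF15 library than in any NC library. Its log2 fold change without the filter was -0.33 and was not called. Of the 30 tested type I sensors and effectors 11 rose and 7 fell, beside 30.0 and 31.4% of all tested genes, with a median of 0.22. The medians of the tested genes were thus alike, but that of the first group leaves out PSMB9. With 2 genes on 1 side no test of the difference was made.

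Ratios of 2 genes within a library do not depend on the scaling between libraries. They are given as a description, as the smallest two-sided permutation p for groups of 3 is 0.1. In the pairs IFIT2 and IFIT5, OASL and OAS3, IFI6 and IFI44, and IRF7 and IRF3, the first gene was called higher and the second lower. Their higher ratios follow from those calls and are no further support. IFIT2 stood at 1.31, 1.35 and 1.12 times IFIT5 in the NC libraries and at 3.50, 2.92 and 3.39 times IFIT5 in the siGDF15 libraries. OASL stood below OAS3 in NC, at ratios of 0.757, 0.629 and 0.751, and above it in siGDF15, at 1.83, 2.40 and 2.51. Relative to IFI44, IFI6 stood at 0.368, 0.387 and 0.642 in the NC libraries and at 1.49, 1.41 and 1.20 in the siGDF15 libraries, so that the order of this pair also turned in every library. The ratio of IFITM3 to IFITM1 hardly moved, at 7.50 to 8.26 in NC and 8.13 to 8.53 in siGDF15, and that of PSMB8 to its constitutive counterpart PSMB5 was 0.0858 to 0.103 in NC and 0.0844 to 0.0939 in siGDF15.

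**Figure D4:**
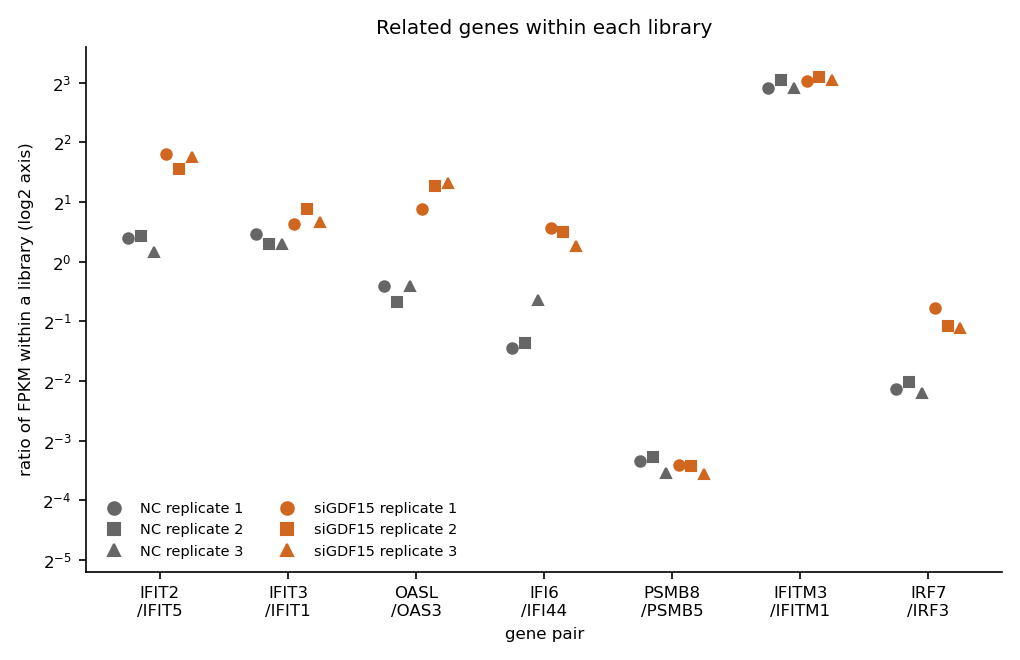
Ratio of the FPKM of 2 genes within each library (log2 axis) for 7 pairs, 1 symbol per replicate, grey for NC and orange for siGDF15. IFIT2 over IFIT5, OASL over OAS3, IFI6 over IFI44 and IRF7 over IRF3 are higher in every siGDF15 library than in any NC library, whereas PSMB8 over PSMB5 overlaps between the groups.

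Of the 24 interferon-stimulated genes with an ISRE core in the window, 20 were tested, of which 6 rose (IFIT3, IFITM1, IFITM3, IFI6, LGALS3BP and PSMB8) and 5 fell (OAS3, IFIT5, SAMD9, IFI44 and PARP14), beside 30.0 and 31.4% of all tested genes. The median log2 fold change of these 20 was 0.097. Of the 11 genes whose window held no core, 7 were tested, of which STAT2, IRF1 and UBE2L6 rose and SAMD9L fell, with a median of 0.32. Among the cores printed above, those of IFIT5 and IFI44 (fell) and PARP9 (not called) all read TTTCAGTTTC. The 3 printed genes that rose had other letters at the open positions, and so did OAS3 and PARP14, which fell. The cores of IFITM1, IFITM3 and PSMB8, which also rose, and of SAMD9, which also fell, are not printed. Only the match nearest the start was compared. The match says only that the letters stand in the window, and nothing of what was bound there.

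A list of 52 other genes of the interferon and antigen presentation pathways had 47 genes in the table and 39 tested, of which 14 rose and 8 fell, beside 30.0 and 31.4% of all tested genes, with a median log2 fold change of 0.096. Among 10 interferon ligands only IFNE, the epithelial type I interferon, was tested, and it measured 0.520, 0.929 and 0.698 FPKM in NC and 1.33, 1.46 and 1.72 FPKM in siGDF15, a log2 fold change of 1.18 (SE 0.24, adjusted p = 0.0027). Like IFI27, IFNE passed the level filter only through its siGDF15 libraries, so this value is a description. IFNB1, interferon beta, had counts of 0 in all NC libraries and of 4, 0 and 14 in siGDF15, about the floor of 12 counts.

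The type I receptor genes and JAK1 were not called, with log2 fold changes of 0.0045 for IFNAR1 (adjusted p = 0.95), -0.092 for IFNAR2 (adjusted p = 0.24) and 0.062 for JAK1 (adjusted p = 0.23). TYK2, the other kinase of that receptor, measured 12.2, 11.9 and 10.95 FPKM in NC and 6.93, 6.57 and 6.43 FPKM in siGDF15 and fell by 0.71 (SE 0.055, adjusted p = 1.3e-05). In the 8 tested genes of receptors and JAK-STAT signalling, 2 rose (IFNGR1 by 0.79, IFNGR2 by 0.30) and 2 fell (TYK2 and JAK2). By the same rule 30.0% of all tested genes rose and 31.4% fell. Of 5 tested negative regulators SOCS3, a feedback inhibitor of JAK kinases, fell by 0.50 (adjusted p = 4.2e-04) and the others were not called.

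Of 10 tested sensors and adaptors 2 rose and 4 fell, beside 30.0 and 31.4% of all tested genes. CGAS, the sensor of cytosolic DNA, measured 5.60, 5.63 and 5.91 FPKM in NC and 2.33, 1.72 and 1.95 FPKM in siGDF15, a fall with a log2 fold change of -1.40 (SE 0.11, adjusted p = 1.2e-05). RIGI, the RNA sensor that the table lists as DDX58, rose by 0.37 (adjusted p = 0.013) and lost the call without siGDF15 replicate 1 (adjusted p = 0.0504). EIF2AK2, the RNA-activated kinase PKR, fell by 0.47 (adjusted p = 3.9e-04). The remaining calls were TBK1, which rose by 0.20, and IKBKE and IRF3, which fell by 0.39 and 0.33, and of these TBK1 and IKBKE lost the call without some library (adjusted p up to 0.14 and 0.052).

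The genes of MHC class I and antigen processing had 8 of 12 higher and 1 lower, beside 30.0 and 31.4% of all tested genes, with a median log2 fold change of 0.50. HLA-E, the ligand of NKG2A receptors, measured 37.2, 37.4 and 36.2 FPKM in NC and 96.2, 100.2 and 102.9 FPKM in siGDF15, a rise of 1.54 (SE 0.046, adjusted p = 3.5e-07). HLA-B, a classical peptide-presenting chain, rose by 1.21 (SE 0.058, adjusted p = 1.3e-06) and B2M, the common light chain, by 0.48 (SE 0.050, adjusted p = 6.8e-05). TAP2, a subunit of the peptide transporter, fell by 0.70 (adjusted p = 1.9e-05), while TAP1 had a log2 fold change of 0.070 (adjusted p = 0.51). HLA genes are close paralogs and vary in sequence, so their reads may be shared or lost in alignment. The constitutive proteasome genes PSMB5, PSMB6 and PSMB7 had log2 fold changes of 0.24, 0.13 and 0.095, of which PSMB5 passed the test (adjusted p = 0.010).

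**Figure D5:**
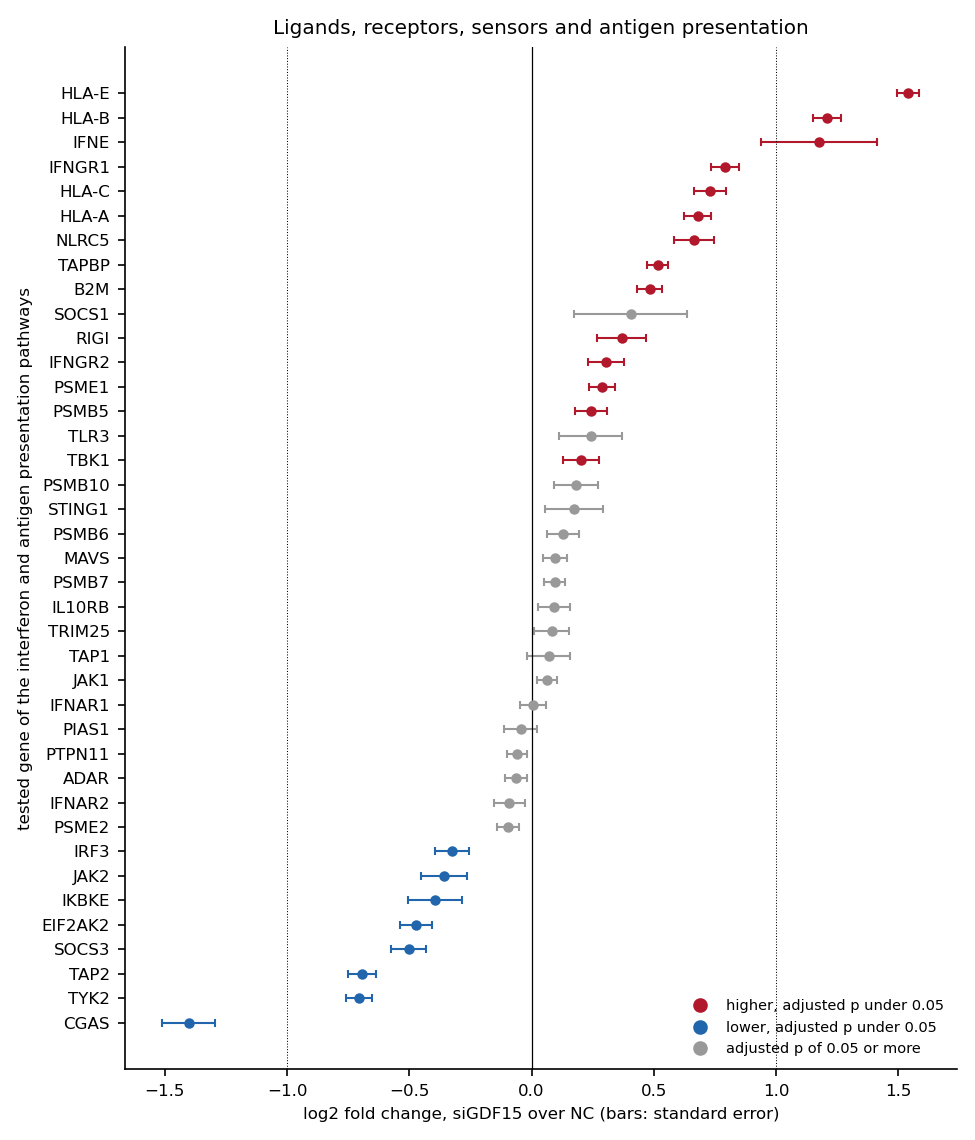
Log2 fold change (siGDF15 over NC) with its standard error for the 39 tested genes of the interferon ligand, receptor, sensor, regulator and antigen presentation lists, in order of size. Red marks the 14 genes higher and blue the 8 genes lower at an adjusted p under 0.05, with HLA-E, HLA-B and IFNE above a log2 fold change of 1 and CGAS below -1.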

How the data were processed

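Poly(A) RNA of 6 libraries (3 NC, 3 siGDF15) was sequenced by the authors on an Illumina NovaSeq instrument from a dUTP strand-marked kit. The submitters' processing notes name fastp, HISAT2, StringTie, edgeR and GRCh38, and versions, options and the strand setting of the counting are not given in the sources used here. The authors deposited FPKM per gene, scaled by length and mapped fragments, and expected counts, whole numbers worked out from coverage without normalization. The value 4 made up 15.6% of counts from 1 to 20, so 1 read pair was taken as 4 counts and 3 read pairs (12 counts) as the floor. Floors cover counting error only. No column of values per library was left out.

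Counts were tested with edgeR 4.0.16 (quasi-likelihood, TMM, two-sided, Benjamini-Hochberg over 11867 genes with mean FPKM of at least 1), in R 4.3.3, after a check on simulated counts. Genes were called at an adjusted p under 0.05. Standard errors follow from the fold change and its F statistic. The members, the role groups and the pathway and marker lists were chosen with earlier results of these data known, and some genes of the pathway and marker lists are not reported here. Values per library were given for every called member and for the most expressed member of each role group, and for others by range, with further members shown where NC replicate 3 stood apart or a neighbour was compared. Pathway genes were named where called with a log2 fold change of at least 1, or from a set list (IFNAR1, IFNAR2, JAK1, TYK2, RIGI, EIF2AK2, HLA-B, B2M), and the other called ones by their size, chosen after their values were seen. Alternatives were DESeq2 1.42.0, limma 3.58.1 on log2(FPKM + 1) and log2(FPKM + 0.1), other scalings and filters, a replicate block, each library left out, and, chosen after seeing the data, NC replicate 3 alone as NC. Promoter windows are those of RefSeq (GRCh38.p14), whose gene starts may differ from the annotation behind the deposited table, and were matched by symbol for 35 of 42 genes. The last 35 bases of 42 of 47 windows were found in GENCODE 29 transcripts on the same strand. Figures were drawn with matplotlib 3.10.9 in Python 3.11.15.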

Additional observations from a re-analysis of the deposited data

How the results depend on the processing

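The numbers of interferon-stimulated genes called stayed near the 13 higher and 7 lower: 12 to 15 higher and 5 to 8 lower over all alternatives, with 12 to 13 and 6 to 7 when 1 library was left out (lowest and highest). With NC replicate 3 alone as NC, which assumes that this library varies like the siGDF15 ones, 13 were higher and 5 lower. The median log2 fold change of the tested genes (0.22) was 0.11 with limma on log2(FPKM + 0.1), 0.079 on log2(FPKM + 1), 0.12 with total counts without TMM, 0.27 with the same median in each library and 0.29 without a level filter, and 0.156 to 0.278 when 1 library was left out. The median of all genes moved with the same scalings, to -0.10, -0.081, -0.099, 0.057 and 0.073. The number of genes higher with a log2 fold change of at least 1 (2) was 0 with limma on log2(FPKM + 1) and 1 with total counts without TMM.

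Directions near 0 were reversed for ISG15 (0.016 with the same median, -0.12 to 0.042 without 1 library), HERC6 (0.0013 with the same median, -0.12 to 0.033 without 1 library) and BST2 (-0.053 with NC replicate 3 alone). With limma on log2(FPKM + 0.1), limma on log2(FPKM + 1), mean FPKM of at least 0.1, no filter and total counts without TMM, HERC5 was -0.088, -0.075, -0.011, -0.033 and -0.082, PARP9 was -0.074, -0.057, -0.0025, -0.025 and -0.074, and IFNAR1 was -0.098, -0.080, -0.026, -0.048 and -0.098. Without 1 library HERC5 ranged from -0.051 to 0.087, PARP9 from -0.042 to 0.076 and IFNAR1 from -0.025 to 0.040. JAK1 was -0.043 and -0.039 with limma at pseudocounts of 0.1 and 1 and -0.040 with total counts without TMM. The cause was not tested, beyond the shift of all genes that these scalings make. None of these genes passed the test in the reported fit.

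Over all genes the reported 3565 higher and 3721 lower were 2705 and 4682 without TMM, 2682 and 4647 with limma on log2(FPKM + 0.1), 2687 and 4653 on log2(FPKM + 1) and 4074 and 3228 with the same median. Replicate numbers did not pair the libraries, since same-numbered deviations from the group means correlated at 0.028, -0.075 and 0.046. With the replicate block 13 genes were higher and 6 lower, beside 3391 and 3515 of all genes. IFIT5 and PSMB8 were no longer called. IFI27, which passed the level filter only through its siGDF15 libraries, was called (1.90). Library depth limits MX2, RSAD2, CMPK2, IFI44L and XAF1, which rest on few read pairs.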
